A study of Mus musculus with 12 samples.

Results

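NF-kappaB, the dimeric transcription factor that switches on many inflammatory genes, was followed through 9 genes in mouse aortic endothelial cells. The cells were labelled wild type or null for the transcription factors Ets1, Ets2 or both. The 9 genes are 3 encoding NF-kappaB subunits (Rela, Nfkb1 and Nfkb2), 3 encoding proteins of the inhibitor family that bind those subunits (Nfkbia, Nfkbiz and Bcl3) and 3 inducible genes of inflammation (Ptgs2, Lif and Lcn2). A probe set, a group of array probes read as 1 value, belonged to a gene when the array annotation gave that symbol alone. Of 20523 probe sets on the table, 16 belonged to 8 of the 9 genes, and Nfkb1 had none. The members were chosen by name with earlier results of these same arrays known, among them lower values of Nfkbiz, Bcl3 and Ptgs2 in the single nulls than in wild type. The comparisons of Ets1 null and of Ets2 null with wild type are therefore given for these genes as descriptions, without a test.

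Aortic endothelial cells of mice, 4 weeks of age, had been cultured and measured on Affymetrix mouse expression arrays, and 11 arrays were used. The 2 arrays labelled Ets1/2 null came from Ets1-/-; Ets2fl/fl cells given a lentivirus with egfp-Cre, the recombinase that cuts out the floxed Ets2 alleles. The 3 Ets1 null arrays came from Ets1-/-; Ets2fl/fl cells given a lentivirus with egfp alone, so they too carried floxed Ets2. The 3 Ets2 null arrays came from Ets1+/+; Ets2fl/fl cells with the egfp-Cre virus, and the 3 wild-type arrays from Ets1+/+; Ets2+/+ cells with the egfp virus. Every group had thus been infected, and Cre and the label of Ets2 loss went together. The titles call each array a biological replicate and do not say whether it had its own animal or culture, so p-values measure the spread between these arrays.

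In resting cells, NF-kappaB dimers are held in the cytoplasm by inhibitors of the IkappaB family. Signals from cytokine and pattern receptors activate a kinase complex that marks the inhibitor for destruction, and the freed dimers enter the nucleus and bind their DNA sites. Nfkbia, the gene of the main cytoplasmic inhibitor, is itself a target, which makes a negative feedback loop, while the products of Nfkbiz and Bcl3 act inside the nucleus on dimers already bound to DNA. In endothelial cells the pathway is known for inducing cytokines, adhesion molecules and prostaglandin synthesis.

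Before the members are described, 4 features of the arrays bear on them. The median log2 value over all probe sets was 8.30 and 8.29 in the arrays labelled Ets1/2 null, against 9.13 to 9.15 in the Ets1 null arrays, 9.06 to 9.08 in the Ets2 null arrays and 9.05 to 9.12 in the wild-type arrays. Member values are therefore given as deposited and after subtraction of the array's median ("centred"), and a gene is said to have risen or fallen only where both passed the test. Wild-type array 3 lay nearer to the single nulls than to the other wild-type arrays: the median over the members of the difference from the wild-type mean was -0.84 there, against 0.56 and 0.45 in wild-type arrays 1 and 2, and it ran from -1.43 to -0.95 over Ets1 null and from -1.98 to -0.92 over Ets2 null arrays. A level above 6 of the Y-linked gene Eif2s3y showed 4 of the 11 arrays to be male, wild-type array 1 and every Ets2 null array. The brightest Ets1 probe set (1452163_at) read 10.02 and 10.29 in the arrays labelled Ets1/2 null, against 8.31, 8.76 and 9.17 in the Ets1 null arrays, which carry the same Ets1-/- label, 9.50, 9.55 and 9.88 in the Ets2 null and 10.26, 9.84 and 10.06 in the wild-type arrays. Of the 3 dimmer ones, 1426725_s_at read 9.81 and 9.81 in the arrays labelled Ets1/2 null, against 8.13 to 8.92 in the Ets1 null arrays, 1422028_a_at read 7.40 and 7.98, against 6.95 to 7.94, and 1422027_a_at read 6.49 and 7.05, against 7.72 to 8.57. As deposited, in 2 of the 4 Ets1 probe sets both arrays labelled Ets1/2 null were thus above all Ets1 null arrays. Centred, 1422028_a_at was above as well, at -0.90 and -0.31 against -2.18, -1.22 and -1.21. The brighter Ets2 probe set (1416268_at) read 11.02 and 9.63 in the arrays labelled Ets1/2 null, 10.28, 10.37 and 10.54 in the Ets1 null arrays, 9.63, 9.35 and 10.13 in the Ets2 null arrays and 9.72, 10.01 and 10.70 in the wild-type arrays. Centred, it had 2.72 and 1.34 in the arrays labelled Ets1/2 null, against 1.15, 1.23 and 1.39 in the Ets1 null arrays. The Ets2 null arrays had 0.55, 0.29 and 1.05 and the wild-type arrays 0.68, 0.89 and 1.59. The dimmer one (1447685_x_at) read 8.36 and 7.03 in the arrays labelled Ets1/2 null and 7.96, 7.85 and 7.87 in the Ets1 null arrays. It read 7.75, 7.60 and 7.82 in the Ets2 null arrays and 7.61, 7.92 and 8.17 in the wild-type arrays. Where these probes lie relative to the deleted parts was not known, so the group is called by its label throughout.

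The tissue was checked against marker genes. Of 16 endothelial markers, 5 were on the table (Kdr, Flt1, Eng, Cd34 and Egfl7), and others such as Pecam1 and Cdh5 were not analysed here. The median centred level of those 5 ran from -1.73 to -0.86 in the arrays labelled Ets1/2 null, from -1.48 to -1.10 in the Ets1 null arrays, from -1.16 to 0.33 in the Ets2 null arrays and from -0.90 to -0.61 in the wild-type arrays. Of 9 fibroblast markers 8 were measured, with medians of 1.26 to 2.09 in the arrays labelled Ets1/2 null, -0.38 to 0.68 in the Ets1 null arrays, 1.07 to 2.14 in the Ets2 null arrays and 0.81 to 2.21 in wild type. The fibroblast list was split, with 2 to 4 of its 8 genes below the lower quartile of each array. Of 11 leukocyte markers 5 were measured, with medians of -1.66 to -1.24 in the arrays labelled Ets1/2 null, -2.08 to -1.90 in the Ets1 null arrays, -2.13 to -1.94 in the Ets2 null arrays and -1.91 to -1.74 in wild type. Smooth muscle markers (7 of 9) overlapped between all groups, from -0.38 to 0.74 in the arrays labelled Ets1/2 null and from -0.82 to 1.89 over the others.

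Stretches upstream of 4 members are shown because they differ in what a reader of NF-kappaB would look for first, a match to its consensus. Each is the 250 bases before the RefSeq start (mouse GRCm38.p6), read 5' to 3' on the gene's strand, and capitals mark the match.
Nfkbia promoter, chr12:55492648-55492897, minus strand: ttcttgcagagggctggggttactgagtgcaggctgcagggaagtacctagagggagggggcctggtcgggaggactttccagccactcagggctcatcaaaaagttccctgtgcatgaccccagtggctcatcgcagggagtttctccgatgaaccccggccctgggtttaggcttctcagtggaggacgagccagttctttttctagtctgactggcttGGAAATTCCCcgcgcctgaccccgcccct
Nfkb2 promoter, chr19:46304487-46304736, plus strand: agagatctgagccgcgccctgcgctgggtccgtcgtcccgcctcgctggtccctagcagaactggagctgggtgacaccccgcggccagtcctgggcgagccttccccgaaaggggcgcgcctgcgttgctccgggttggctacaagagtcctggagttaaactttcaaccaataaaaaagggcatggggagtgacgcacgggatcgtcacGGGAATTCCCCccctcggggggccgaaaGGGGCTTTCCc
Lif promoter, chr11:4257318-4257567, plus strand: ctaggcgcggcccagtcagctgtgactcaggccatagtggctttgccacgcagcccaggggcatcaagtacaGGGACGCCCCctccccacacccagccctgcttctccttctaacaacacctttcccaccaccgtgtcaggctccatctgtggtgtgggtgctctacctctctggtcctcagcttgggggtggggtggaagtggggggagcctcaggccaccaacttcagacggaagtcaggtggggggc
Ptgs2 promoter, chr1:150099781-150100030, plus strand: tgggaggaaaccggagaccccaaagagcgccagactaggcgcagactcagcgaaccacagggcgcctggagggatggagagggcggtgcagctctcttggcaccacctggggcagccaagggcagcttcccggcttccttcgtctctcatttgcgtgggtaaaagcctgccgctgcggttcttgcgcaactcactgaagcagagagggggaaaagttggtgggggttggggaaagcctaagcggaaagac
The Nfkbia match lay 29 to 20 bases before the start. The Nfkb2 window held 3 matches, of which 2 overlap in the first run of capitals, and Lif held 1 at 178 to 169 bases before its start. The Ptgs2 window held none. In all, 7 members had 9 promoters in the table, Nfkbiz and Nfkb1 had no entry, and 5 promoters of 3 genes (Nfkbia, Nfkb2 and Lif) held the consensus on either strand, against 7.25% of 32851 promoters of the same length. None was found within the window of Bcl3, Rela, Ptgs2 or Lcn2. The core GGAA, which ETS factors bind, was in 9 of the 9 promoters and in 93.45% of all promoters on either strand. The longer CCGGAA was in 0 of 9 and in 12.03% of all. All NF-kappaB matches except the one of Lif overlapped a GGAA, since the consensus can itself contain that core. Such matches describe letters and are not evidence of binding.

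In each single null, all 16 probe sets of the 8 genes had a mean below the wild-type mean. Of all 11015 genes, 5266 did in Ets1 null and 5771 in Ets2 null. These comparisons chose the genes, so nothing is read from that count. Some differences were no larger than their standard error: Rela had -0.14 ± 0.14 in Ets1 null and -0.10 ± 0.14 in Ets2 null. The brighter Nfkb2 probe set had -0.04 ± 0.34 in Ets1 null. Over the brightest probe set of each gene, the median difference was -1.16 in Ets1 null and -1.82 in Ets2 null on the log2 scale, as deposited. In the arrays labelled Ets1/2 null the same genes parted. Nfkbiz, Ptgs2 and the 2 secreted factors Lif and Lcn2 stood above Ets1 null, and Nfkbiz, Ptgs2, Lif and Nfkbia above Ets2 null. Rela and Nfkb2 stood below every other group. Fewer cells that express a gene and less RNA of it per cell cannot be told apart in such bulk RNA.

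**Figure D1:**
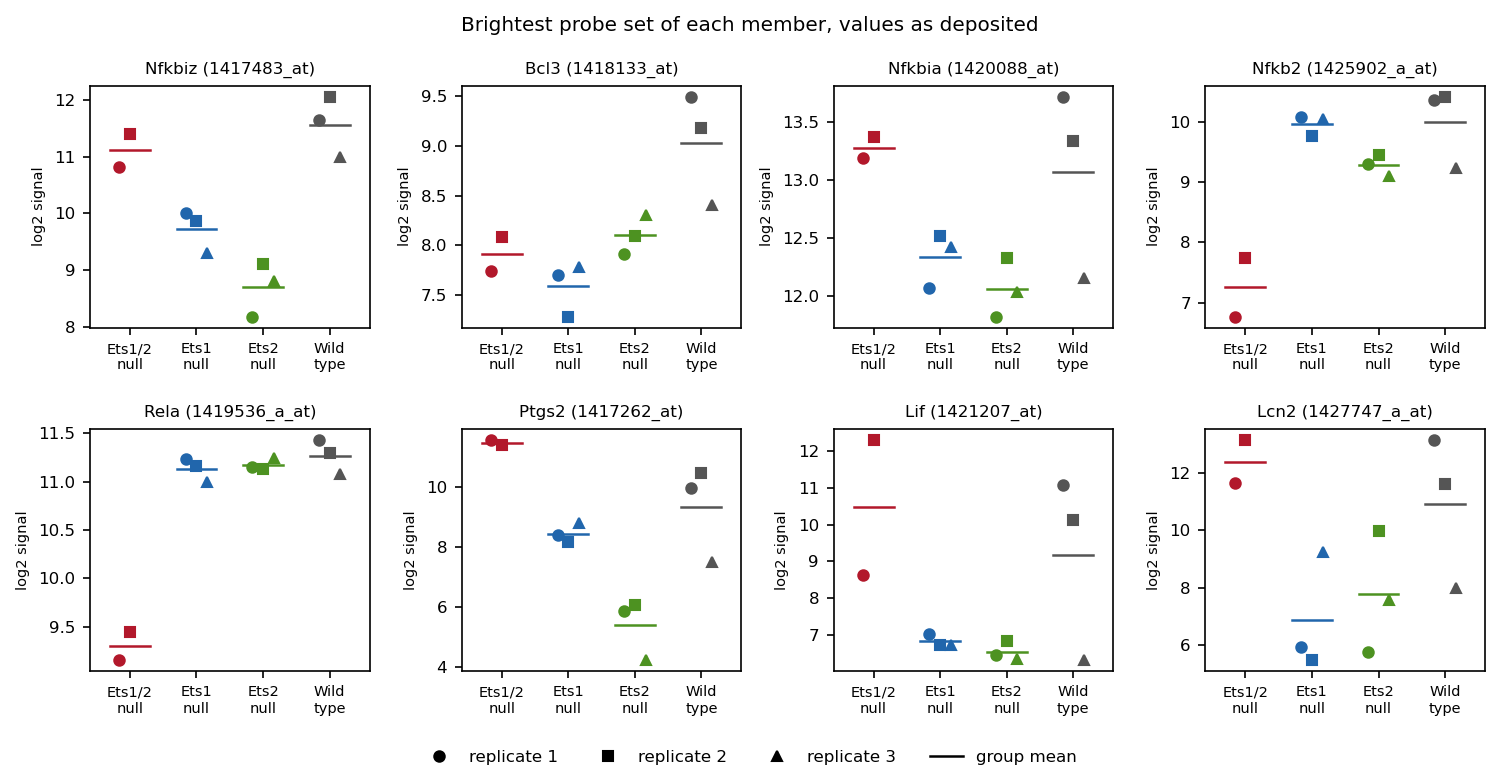
Log2 signal as deposited (vertical axis) of the brightest probe set of each of the 8 members, by group (horizontal axis). Each point is an array, with the shape giving the replicate number, and each line is a group mean; the arrays labelled Ets1/2 null lie at 11.58 and 11.41 in Ptgs2, above every other array, and at 9.16 and 9.44 in Rela, below every other array.

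Nfkbiz encodes IkappaB-zeta, a nuclear protein that joins DNA-bound NF-kappaB and is needed for a set of secondary response genes, Lcn2 among them. Its brightest probe set, 1417483_at, read 10.83 and 11.39 in the arrays labelled Ets1/2 null, 10.002, 9.87 and 9.31 in the Ets1 null arrays, 8.19, 9.11 and 8.81 in the Ets2 null arrays and 11.64, 12.05 and 10.99 in the wild-type arrays. Ets2 null was lowest, Ets1 null next, and the other groups overlapped at the top, with no overlap between the first 2 or between them and the rest. Centred values were 2.53 and 3.10 in the arrays labelled Ets1/2 null, 0.87, 0.73 and 0.16 in the Ets1 null arrays, -0.89, 0.06 and -0.27 in the Ets2 null arrays and 2.60, 2.94 and 1.88 in the wild-type arrays. With centring the single nulls kept their order and the other groups again overlapped, but the mean of the arrays labelled Ets1/2 null was then above that of wild type. The mean differences from wild type were -1.83 ± 0.34 in Ets1 null and -2.86 ± 0.34 in Ets2 null (limma's standard error, SE, n = 3 and 3).

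The second Nfkbiz probe set, 1448728_a_at, followed the first, at 9.30 and 10.13 in the arrays labelled Ets1/2 null, 8.93, 8.92 and 8.65 in the Ets1 null arrays, 7.46, 8.22 and 7.75 in the Ets2 null arrays and 10.82, 11.37 and 9.72 in the wild-type arrays. Its centred values were 1.01 and 1.84 in the arrays labelled Ets1/2 null, -0.20, -0.22 and -0.50 in the Ets1 null arrays, -1.62, -0.83 and -1.33 in the Ets2 null arrays and 1.78, 2.26 and 0.60 in the wild-type arrays. Group means had Ets2 null lowest and wild type highest, as deposited and centred. The last, 1457404_at, read 8.53 and 8.45 in the arrays labelled Ets1/2 null, 9.44, 8.13 and 9.25 in the Ets1 null arrays, 7.87, 8.69 and 8.09 in the Ets2 null arrays and 8.73, 9.44 and 9.37 in the wild-type arrays. Ets1 null arrays overlapped both Ets2 null and wild-type arrays, while all Ets2 null arrays lay just below all wild-type ones, and centred it had 0.23 and 0.16 in the arrays labelled Ets1/2 null, 0.31, -1.01 and 0.10 in the Ets1 null arrays, -1.20, -0.36 and -0.99 in the Ets2 null arrays and -0.32, 0.33 and 0.25 in the wild-type arrays. Where on the transcript these probes lie was not known.

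Against Ets1 null, the brightest Nfkbiz probe set rose in the arrays labelled Ets1/2 null by 1.38 ± 0.38 as deposited (limma, adjusted p = 0.0142, n = 2 and 3) and by 2.23 ± 0.38 centred (adjusted p = 0.00267). Against Ets2 null it rose by 2.41 ± 0.38 (adjusted p = 0.000771) and by 3.18 ± 0.38 centred (adjusted p = 0.000455), a 5.31-fold difference as deposited. These single-null arrays also served to choose the genes. The p-values against them, here and for the other members, are therefore not independent of that choice. The call against Ets1 null was lost without array 2 labelled Ets1/2 null (1.10, adjusted p = 0.103) and with the mean of the 3 probe sets (0.61, adjusted p = 0.143). The call against Ets2 null held in all 21 alternative settings. Against wild type the difference was -0.45 ± 0.38 as deposited (adjusted p = 0.352) and 0.34 ± 0.38 centred (adjusted p = 0.516), so its sign turned with the scaling.

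Bcl3, the nuclear IkappaB relative that binds the p50 and p52 subunits, had 1 probe set, 1418133_at. It read 7.74 and 8.09 in the arrays labelled Ets1/2 null, 7.70, 7.28 and 7.78 in the Ets1 null arrays, 7.91, 8.09 and 8.30 in the Ets2 null arrays and 9.49, 9.18 and 8.41 in the wild-type arrays. Wild-type arrays were highest, without overlap with any other group. Centred, the values were -0.56 and -0.21 in the arrays labelled Ets1/2 null, -1.43, -1.86 and -1.37 in the Ets1 null arrays, -1.16, -0.97 and -0.78 in the Ets2 null arrays and 0.45, 0.06 and -0.71 in the wild-type arrays, and wild type then overlapped the arrays labelled Ets1/2 null. The mean difference from wild type was -1.44 ± 0.27 in Ets1 null and -0.92 ± 0.27 in Ets2 null (n = 3 and 3). For the arrays labelled Ets1/2 null it was -1.11 ± 0.31 as deposited (limma, adjusted p = 0.0143, n = 2 and 3) and -0.32 ± 0.32 centred (adjusted p = 0.466). Bcl3 therefore lost its call against wild type with the scaling. Against Ets1 null it had 0.33 ± 0.31 (adjusted p = 0.409) and, centred, 1.17 ± 0.32 (adjusted p = 0.0188), and against Ets2 null -0.19 ± 0.31 (adjusted p = 0.648) and 0.59 ± 0.32 centred (adjusted p = 0.175).

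Nfkbia, the gene of the cytoplasmic inhibitor IkappaB-alpha, had 5 probe sets. The brightest, 1420088_at, read 13.19 and 13.37 in the arrays labelled Ets1/2 null, 12.07, 12.52 and 12.43 in the Ets1 null arrays, 11.83, 12.33 and 12.04 in the Ets2 null arrays and 13.72, 13.34 and 12.16 in the wild-type arrays. The arrays labelled Ets1/2 null lay above every single-null array and between wild-type arrays, while wild-type array 3 lay within the single nulls. Centred, it had 4.89 and 5.08 in the arrays labelled Ets1/2 null, 2.94, 3.38 and 3.28 in the Ets1 null arrays, 2.75, 3.28 and 2.96 in the Ets2 null arrays and 4.67, 4.22 and 3.05 in the wild-type arrays, and the arrays labelled Ets1/2 null were then above all others. Another, 1420089_at, read 8.33 and 8.75 in the arrays labelled Ets1/2 null, 7.46, 7.83 and 7.75 in the Ets1 null arrays, 7.41, 7.73 and 7.21 in the Ets2 null arrays and 8.91, 8.46 and 7.54 in the wild-type arrays. Centred it had 0.03 and 0.46 in the arrays labelled Ets1/2 null, -1.67, -1.31 and -1.40 in the Ets1 null arrays, -1.67, -1.32 and -1.87 in the Ets2 null arrays and -0.13, -0.65 and -1.57 in the wild-type arrays, in the same order as the brightest.

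The remaining 3 probe sets of Nfkbia ran parallel. Probe set 1438157_s_at read 11.26 and 11.76 in the arrays labelled Ets1/2 null, 10.57, 11.28 and 10.92 in the Ets1 null arrays, 10.19, 10.56 and 10.47 in the Ets2 null arrays and 12.80, 12.33 and 10.60 in the wild-type arrays, and centred 2.96 and 3.47 in the arrays labelled Ets1/2 null, 1.44, 2.14 and 1.78 in the Ets1 null arrays, 1.12, 1.51 and 1.39 in the Ets2 null arrays and 3.75, 3.21 and 1.49 in the wild-type arrays. Probe set 1448306_at read 10.71 and 11.61 in the arrays labelled Ets1/2 null, 10.18, 11.003 and 10.75 in the Ets1 null arrays, 9.89, 10.24 and 10.14 in the Ets2 null arrays and 12.64, 12.29 and 10.38 in the wild-type arrays, and centred 2.41 and 3.32 in the arrays labelled Ets1/2 null, 1.05, 1.86 and 1.60 in the Ets1 null arrays, 0.81, 1.18 and 1.06 in the Ets2 null arrays and 3.5999, 3.17 and 1.27 in the wild-type arrays. For 1449731_s_at the readings were 11.08 and 11.47 in the arrays labelled Ets1/2 null, 10.41, 10.99 and 10.79 in the Ets1 null arrays, 10.001, 10.52 and 10.23 in the Ets2 null arrays and 12.62, 12.08 and 10.58 in the wild-type arrays, and centred 2.78 and 3.17 in the arrays labelled Ets1/2 null, 1.29, 1.85 and 1.64 in the Ets1 null arrays, 0.93, 1.47 and 1.15 in the Ets2 null arrays and 3.57, 2.96 and 1.47 in the wild-type arrays. In each of these 3, wild-type arrays 1 and 2 were highest as deposited, array 2 labelled Ets1/2 null passed wild-type array 2 once centred, and wild-type array 3 sat among the single nulls. The names ending in _s_at mark probes that can match more than 1 transcript.

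The 5 Nfkbia probe sets averaged -1.13 to -0.63 against wild type in Ets1 null and -1.68 to -0.86 in Ets2 null. The brightest rose in the arrays labelled Ets1/2 null against Ets2 null, by 1.22 ± 0.39 as deposited (limma, adjusted p = 0.0292, n = 2 and 3) and 1.99 ± 0.40 centred (adjusted p = 0.00557). Probe set 1420089_at passed both ways as well, at 1.09 (adjusted p = 0.031) and, centred, 1.86 (adjusted p = 0.00502). The other 3 had 1.02 to 1.10 and passed only when centred. Against Ets1 null, the brightest had 0.94 ± 0.39 (adjusted p = 0.0761) and, centred, 1.79 ± 0.40 (adjusted p = 0.00907). Against wild type it had 0.21 ± 0.39 (adjusted p = 0.685) and 1.004 ± 0.40 centred (adjusted p = 0.0809). The call against Ets2 null held in 15 of 21 alternative settings. It was lost without either array labelled Ets1/2 null (1.30 without array 1 and 1.13 without array 2). It was also lost without Ets2 null array 1 or 3, with the replicate number as a block and with the mean of the gene's probe sets.

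**Figure D2:**
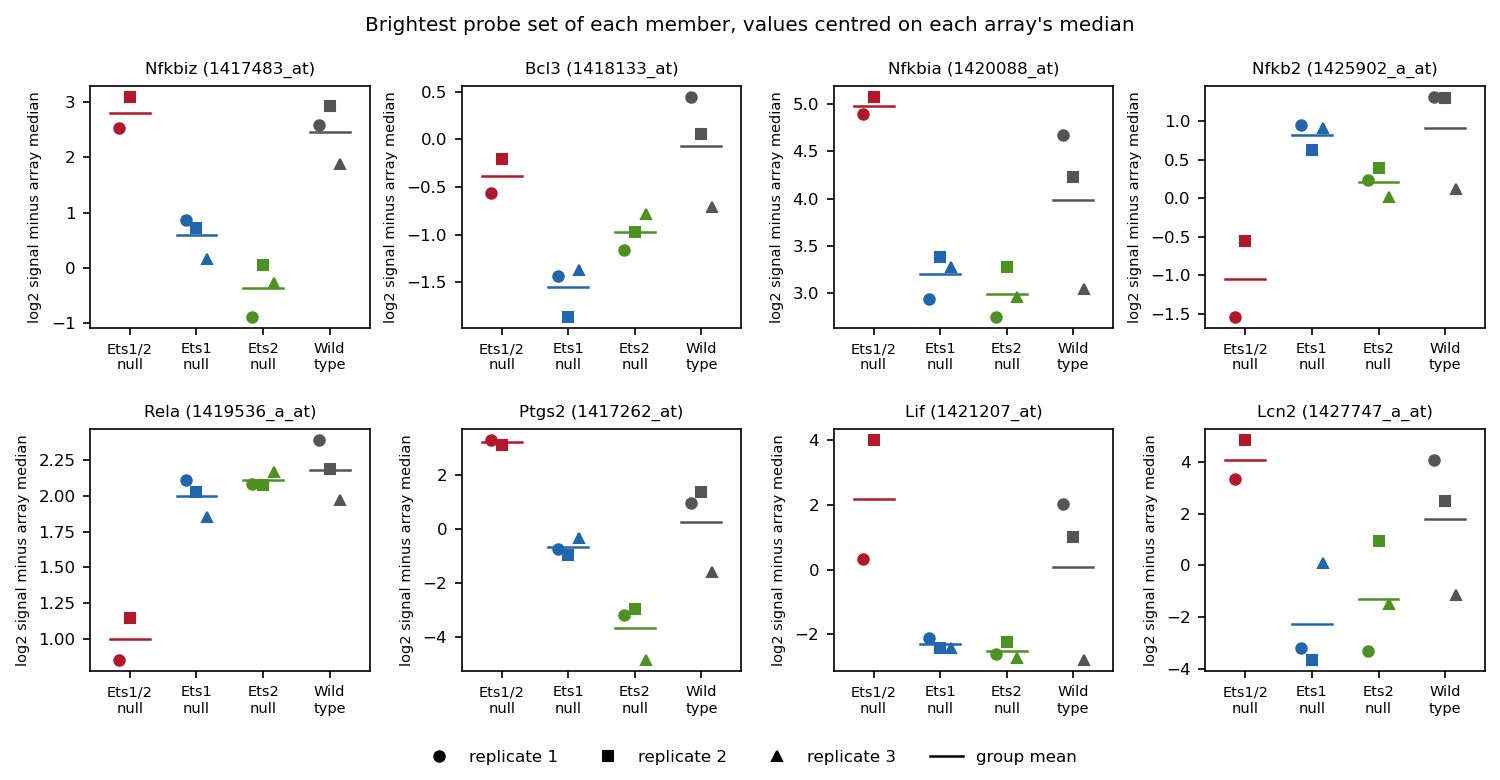
The same probe sets after subtraction of each array's median over all probe sets (vertical axis, log2), by group, with points for arrays and lines for group means. Rela and Nfkb2 remain lowest in the arrays labelled Ets1/2 null (0.86 and 1.15 for Rela), while Ptgs2 (3.28 and 3.12) and Nfkbia (4.89 and 5.08) lie above every other array.

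Rela encodes p65, the subunit with the strongest activation domain. Its probe set, 1419536_a_at, read 9.16 and 9.44 in the arrays labelled Ets1/2 null, 11.24, 11.17 and 11.001 in the Ets1 null arrays, 11.15, 11.13 and 11.25 in the Ets2 null arrays and 11.43, 11.30 and 11.08 in the wild-type arrays. The 9 arrays of the other groups lay within 11.001 to 11.43, and the arrays labelled Ets1/2 null lay well below them. Centred, the readings were 0.86 and 1.15 in the arrays labelled Ets1/2 null, 2.11, 2.03 and 1.85 in the Ets1 null arrays, 2.08, 2.07 and 2.17 in the Ets2 null arrays and 2.39, 2.19 and 1.97 in the wild-type arrays, still without overlap but with a smaller gap. Rela fell in the arrays labelled Ets1/2 null by 1.97 ± 0.16 against wild type (limma, adjusted p = 1.87e-05, n = 2 and 3), with a centred difference of -1.18 ± 0.17 (adjusted p = 0.00103). Against Ets1 null it fell by 1.84 ± 0.16 (adjusted p = 2.45e-05; centred -0.99 ± 0.17, adjusted p = 0.00228) and against Ets2 null by 1.88 ± 0.16 (adjusted p = 2.4e-05; centred -1.10 ± 0.17, adjusted p = 0.00136). These 3 calls held in all 21 alternative settings. Single nulls differed from wild type by -0.14 ± 0.14 (Ets1 null) and -0.10 ± 0.14 (Ets2 null).

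Nfkb2 encodes p100, which is processed to the p52 subunit of the non-canonical pathway. Its brighter probe set, 1425902_a_at, read 6.77 and 7.73 in the arrays labelled Ets1/2 null, 10.08, 9.77 and 10.06 in the Ets1 null arrays, 9.31, 9.45 and 9.10 in the Ets2 null arrays and 10.36, 10.42 and 9.24 in the wild-type arrays. Both arrays labelled Ets1/2 null were below all others, and wild-type array 3 again lay with Ets2 null. Centred it had -1.53 and -0.56 in the arrays labelled Ets1/2 null, 0.95, 0.63 and 0.91 in the Ets1 null arrays, 0.23, 0.39 and 0.02 in the Ets2 null arrays and 1.32, 1.30 and 0.13 in the wild-type arrays. A fall passed the test both ways against every group: -2.76 ± 0.38 against wild type (limma, adjusted p = 0.000369; centred -1.96 ± 0.39, adjusted p = 0.00485), -2.72 ± 0.38 against Ets1 null (adjusted p = 0.000393; centred -1.88 ± 0.39, adjusted p = 0.00627) and -2.03 ± 0.38 against Ets2 null (adjusted p = 0.00206; centred -1.26 ± 0.39, adjusted p = 0.0326). With a term for male arrays the last had an adjusted p of 0.125. Every Ets2 null array is male, so that term rests on wild-type array 1 against wild-type arrays 2 and 3.

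The dimmer Nfkb2 probe set, 1429128_x_at, read 7.50 and 7.62 in the arrays labelled Ets1/2 null, 8.50, 8.33 and 8.70 in the Ets1 null arrays, 8.53, 8.60 and 8.33 in the Ets2 null arrays and 8.78, 8.70 and 8.34 in the wild-type arrays. Centred it had -0.80 and -0.68 in the arrays labelled Ets1/2 null, -0.63, -0.81 and -0.45 in the Ets1 null arrays, -0.54, -0.46 and -0.75 in the Ets2 null arrays and -0.26, -0.42 and -0.77 in the wild-type arrays, so that the groups no longer separated. Its differences of -1.05, -0.95 and -0.93 against wild type, Ets1 null and Ets2 null passed as deposited, and the centred ones of -0.25, -0.11 and -0.16 did not (adjusted p = 0.319, 0.675 and 0.547). Subtraction of an array's median does not alter the difference between the 2 Nfkb2 probe sets within that array, though quantile normalization can. This difference was -0.73 and 0.12 in the arrays labelled Ets1/2 null and 0.77 to 1.72 in the other 9. The fall of Nfkb2 was thus read by 1 of its 2 probe sets once arrays were centred.

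Ptgs2 encodes the inducible cyclooxygenase that makes the precursor of the prostaglandins. Its brighter probe set, 1417262_at, read 11.58 and 11.41 in the arrays labelled Ets1/2 null, 8.40, 8.17 and 8.81 in the Ets1 null arrays, 5.88, 6.09 and 4.25 in the Ets2 null arrays and 9.99, 10.50 and 7.52 in the wild-type arrays. Ets2 null was lowest, at percentile 0.10 to 1.44 of the probe sets of its arrays, Ets1 null lay above it, and the arrays labelled Ets1/2 null were highest, with wild-type array 3 below all Ets1 null arrays. Centred it had 3.28 and 3.12 in the arrays labelled Ets1/2 null, -0.73, -0.97 and -0.34 in the Ets1 null arrays, -3.19, -2.97 and -4.83 in the Ets2 null arrays and 0.94, 1.38 and -1.59 in the wild-type arrays, in the same order. The mean difference from wild type was -0.88 ± 0.73 in Ets1 null and -3.93 ± 0.73 in Ets2 null (n = 3 and 3).

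Ptgs2 rose in the arrays labelled Ets1/2 null against Ets2 null by 6.09 ± 0.82 (limma, adjusted p = 0.000324, n = 2 and 3) and by 6.86 ± 0.83 centred (adjusted p = 0.000454). Against Ets1 null it rose by 3.04 ± 0.82 (adjusted p = 0.0134) and 3.88 ± 0.83 centred (adjusted p = 0.00704). Since the Ets2 null readings lie near the bottom of their arrays, no fold is given for the first. Ptgs2 was chosen with its lower values in the single nulls known, so these p-values are not independent of that choice. The call against Ets2 null held in all 21 alternative settings, and the call against Ets1 null was lost without either array labelled Ets1/2 null (adjusted p = 0.0644 without array 1 and 0.0531 without array 2). Against wild type the difference of 2.16 ± 0.82 missed the threshold as deposited (adjusted p = 0.054) and passed centred, at 2.96 ± 0.83 (adjusted p = 0.0218). Without wild-type array 3 that difference was 1.26 as deposited (adjusted p = 0.0963).

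A second Ptgs2 probe set, 1417263_at, read 9.08 and 9.49 in the arrays labelled Ets1/2 null, 7.90, 7.64 and 8.36 in the Ets1 null arrays, 5.81, 5.99 and 5.19 in the Ets2 null arrays and 9.50, 10.001 and 7.06 in the wild-type arrays. Centred it had 0.78 and 1.198 in the arrays labelled Ets1/2 null, -1.23, -1.50 and -0.79 in the Ets1 null arrays, -3.26, -3.06 and -3.89 in the Ets2 null arrays and 0.45, 0.89 and -2.05 in the wild-type arrays. It kept Ets2 null lowest, but placed the arrays labelled Ets1/2 null among wild-type ones as deposited. Against Ets2 null it rose by 3.62 ± 0.72 (limma, adjusted p = 0.00292; centred 4.39, adjusted p = 0.00219), and against Ets1 null it had 1.32 (adjusted p = 0.164; centred 2.16, adjusted p = 0.0456). Between the 2 probe sets the within-array difference was 1.92 and 2.50 in the arrays labelled Ets1/2 null and -0.94 to 0.53 in the other 9. How far Ptgs2 stood above wild type thus depended on the probe set.

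Lif, a cytokine that signals through the gp130 receptor subunit, had 1 probe set, 1421207_at. It read 8.63 and 12.30 in the arrays labelled Ets1/2 null, 7.03, 6.72 and 6.72 in the Ets1 null arrays, 6.45, 6.82 and 6.33 in the Ets2 null arrays and 11.07, 10.11 and 6.32 in the wild-type arrays. The arrays within a group differed more than in most members: 3.67 separated the arrays labelled Ets1/2 null, and wild-type array 3 lay at the level of the nulls. Centred it had 0.34 and 4.01 in the arrays labelled Ets1/2 null, -2.10, -2.42 and -2.43 in the Ets1 null arrays, -2.62, -2.23 and -2.75 in the Ets2 null arrays and 2.02, 0.999 and -2.79 in the wild-type arrays. The arrays labelled Ets1/2 null lay above all 6 single-null arrays either way. The Ets1 null readings were low, at percentile 6.01 to 10.60 of their arrays, and so were the Ets2 null ones, at 3.14 to 7.05. Lif rose against Ets1 null by 3.65 ± 1.34 (limma, adjusted p = 0.048, n = 2 and 3; centred 4.49 ± 1.34, adjusted p = 0.0287) and against Ets2 null by 3.94 ± 1.34 (adjusted p = 0.0353; centred 4.71 ± 1.34, adjusted p = 0.024). Without array 2 labelled Ets1/2 null these were 1.81 and 2.10. The call against Ets1 null held in 11 of 21 alternative settings. It was lost when any Ets1 null or Ets2 null array was left out. The call against Ets2 null held in 14 of 21 and was lost when any Ets2 null array was left out. Both were lost with the replicate number as a block. Against wild type the difference was 1.30 ± 1.34 (adjusted p = 0.446), or -0.12 without wild-type array 3. Mean differences from wild type were -2.35 ± 1.19 in Ets1 null and -2.63 ± 1.19 in Ets2 null.

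Lcn2 encodes lipocalin 2, a secreted protein that binds iron-carrying siderophores. Its probe set, 1427747_a_at, read 11.63 and 13.13 in the arrays labelled Ets1/2 null, 5.94, 5.49 and 9.24 in the Ets1 null arrays, 5.77, 9.98 and 7.57 in the Ets2 null arrays and 13.12, 11.59 and 7.98 in the wild-type arrays. Spread within groups was wide: Ets1 null array 3 and Ets2 null array 2 lay above wild-type array 3, and both arrays labelled Ets1/2 null lay above every single-null array. Centred it had 3.33 and 4.84 in the arrays labelled Ets1/2 null, -3.19, -3.65 and 0.09 in the Ets1 null arrays, -3.30, 0.93 and -1.50 in the Ets2 null arrays and 4.07, 2.47 and -1.13 in the wild-type arrays. Ets1 null arrays 1 and 2 lay near the bottom of their arrays, at percentiles 1.79 and 0.66, as did Ets2 null array 1 at 0.95. Lcn2 rose against Ets1 null by 5.49 ± 1.72 (limma, adjusted p = 0.0256, n = 2 and 3; centred 6.33 ± 1.72, adjusted p = 0.0195). Against Ets2 null it had 4.60 ± 1.72 (adjusted p = 0.0505) and passed only centred, at 5.38 ± 1.72 (adjusted p = 0.0378). The call against Ets1 null held in 15 of 21 alternative settings. It was lost with the replicate number as a block and with array weights. It was also lost without Ets1 null array 1 or 2 and without either array labelled Ets1/2 null. Against wild type Lcn2 had 1.48 ± 1.72 (adjusted p = 0.499), and the single nulls had -4.01 ± 1.54 (Ets1 null) and -3.12 ± 1.54 (Ets2 null) there.

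**Figure D3:**
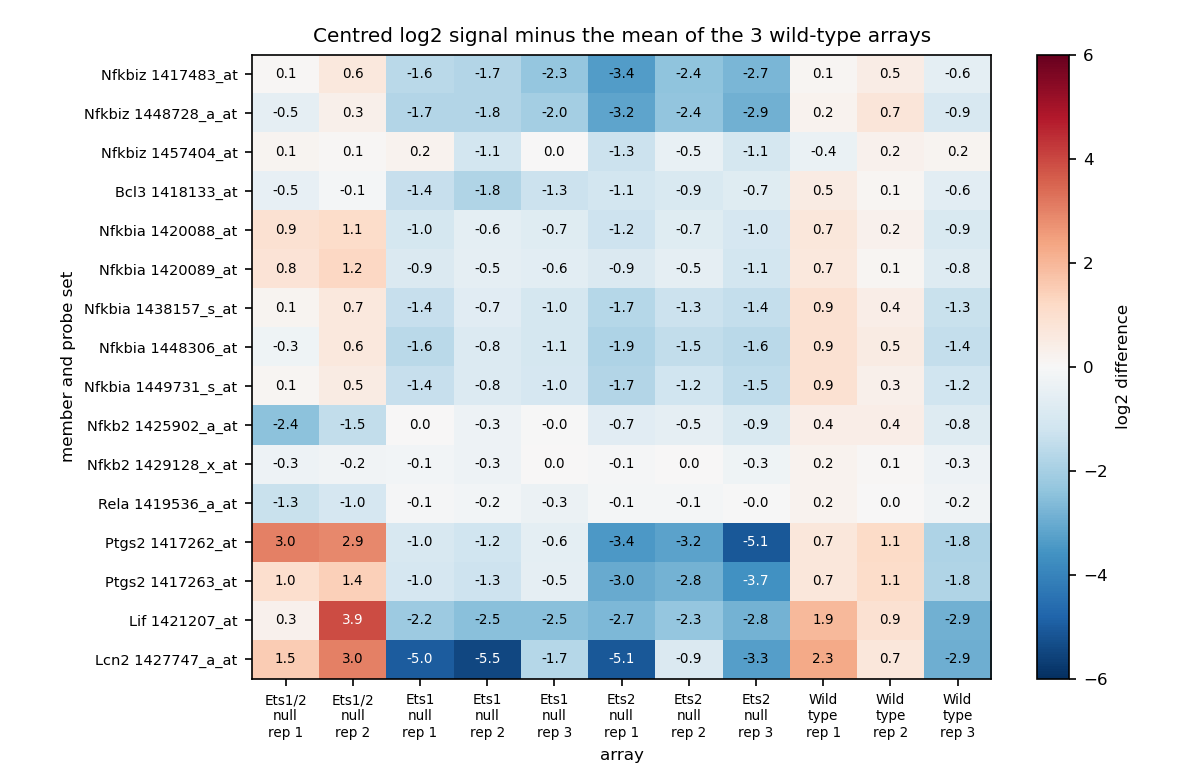
Centred log2 signal of all 16 member probe sets (rows) in each of the 11 arrays (columns), minus the mean of the 3 wild-type arrays. Red is above and blue below that mean; the single-null columns are blue in nearly every row, as is wild-type array 3 (median -0.86), while the arrays labelled Ets1/2 null are red for Ptgs2 and blue for Rela and the brighter Nfkb2 probe set.

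Read as counts of probe sets, 4 of the 16 rose and 2 fell in the arrays labelled Ets1/2 null against Ets1 null as deposited and centred, where 1.76% of all probe sets rose and 13.7% fell. Against Ets2 null 7 rose, from 4 genes, and 2 fell, where 3.12% rose and 14.9% fell. Against wild type 0 rose and 2 fell, where 2.87% rose and 14.4% fell. The share of members that fell was thus near the background in all 3 comparisons. The members were chosen with lower values in these single-null arrays known, which favours rises against them. Nothing is therefore read from the counts of rises. As deposited alone, 48.8%, 47.8% and 48.8% of all probe sets were called against wild type, Ets1 null and Ets2 null, mostly as lower, and 36.0%, 35.4% and 35.2% after centring. Centring moved the share of higher among those calls from 5.9% to 60.0%, from 3.7% to 61.4% and from 6.4% to 57.5%. The median difference of all probe sets was -0.63, -0.63 and -0.60 as deposited and 0.16, 0.22 and 0.17 centred.

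**Figure D4:**
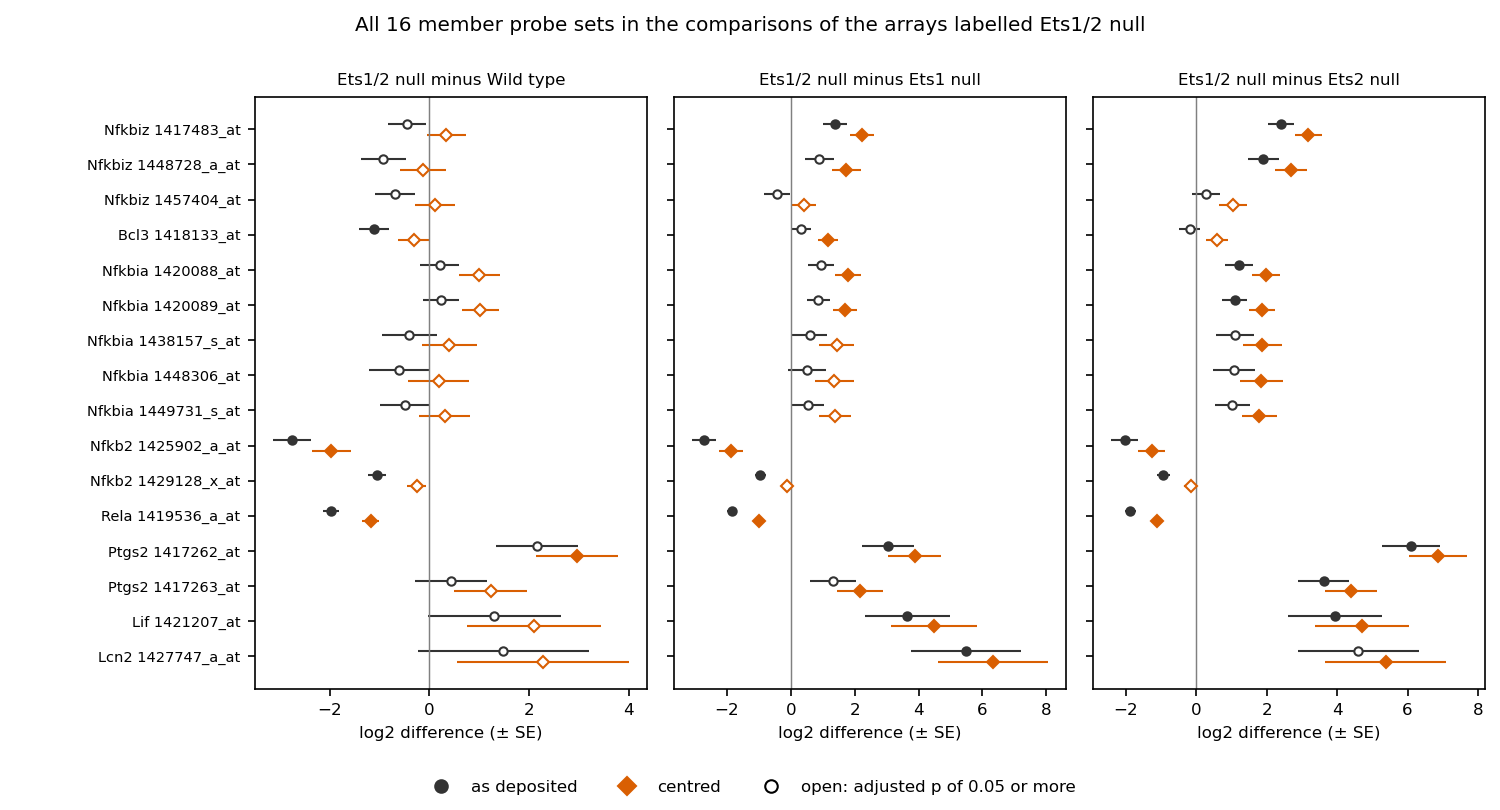
Log2 difference with its standard error (horizontal axis) of all 16 member probe sets (vertical axis) between the arrays labelled Ets1/2 null and wild type, Ets1 null and Ets2 null, as deposited (circles) and centred (diamonds). Filled symbols have an adjusted p under 0.05 in limma; the Rela symbols are filled on the left in all 3 panels and those of Ptgs2 1417262_at lie at 6.09 and 6.86 against Ets2 null.

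Described without a test, 3 of the 16 probe sets had every Ets1 null array below every wild-type array as deposited, against 8.14% of all probe sets, and 9 had every Ets2 null array below, against 14.8%. These comparisons chose the genes, so nothing is read from the counts. Ets1 null against wild type had 0.00487% of probe sets called (1 of 20523, with 1900 at an unadjusted p under 0.05 in limma), and Ets2 null 0.58% (119, with 4248). Without wild-type array 3 the median over the members was -1.76 in Ets1 null and -2.30 in Ets2 null. Without wild-type array 1 it was -1.19 in Ets2 null.

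The other genes of the pathway came from lists of receptors, adaptors, kinases, feedback inhibitors and targets, of which 88 of 123 genes were measured. Against Ets1 null, 2 of the 88 rose and 4 fell in the arrays labelled Ets1/2 null as deposited and centred, against 199 and 1131 of all 11015 genes. Their median was -0.39 (0.45 centred), against -0.59 (0.25) over all genes. Against Ets2 null 8 rose and 5 fell, against 337 and 1352 of all genes, with a median of -0.64 (0.13), against -0.57 (0.20). Against wild type 2 rose and 4 fell, against 266 and 1212.

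Among the kinases, Map3k8 (Tpl2), which links the pathway to ERK, rose against both single nulls. It read 7.88 and 8.0001 in the arrays labelled Ets1/2 null, 5.71, 5.95 and 5.72 in the Ets1 null arrays, 5.37, 5.95 and 6.10 in the Ets2 null arrays and 7.78, 6.97 and 5.61 in the wild-type arrays. The rise was 2.15 ± 0.51 against Ets1 null (limma, adjusted p = 0.00729; centred 2.99) and 2.13 ± 0.51 against Ets2 null (adjusted p = 0.00748; centred 2.90). Wild-type array 3 was again at the level of the nulls. In every single-null array Map3k8 read below Lif, and so within the lowest 10.60% of the probe sets of that array. Irak1, a kinase of the interleukin receptor complex, fell by 1.45 ± 0.16 against Ets1 null, 1.30 ± 0.16 against Ets2 null and 1.26 ± 0.16 against wild type, with smaller centred differences of -0.60, -0.53 and -0.47. Against Ets2 null, Tab3 rose by 0.64 ± 0.20 (centred 1.41) and Map3k14, the kinase of the non-canonical pathway, fell by 1.34 ± 0.17 (centred -0.57). Of the 12 kinases measured, the other 10 (against Ets1 null) and 8 (against Ets2 null) did not pass both ways.

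Of 10 receptors, 2 fell in all 3 comparisons and none rose. Ltbr, the lymphotoxin receptor that feeds the non-canonical pathway, read 8.53 and 8.21 in the arrays labelled Ets1/2 null, 10.72, 10.69 and 10.49 in the Ets1 null arrays, 10.28, 10.19 and 10.91 in the Ets2 null arrays and 10.65, 10.91 and 10.48 in the wild-type arrays. It fell by 2.26 ± 0.24 against Ets1 null, 2.09 ± 0.24 against Ets2 null and 2.31 ± 0.24 against wild type (centred -1.42, -1.32 and -1.52). Tlr4, the receptor of bacterial lipopolysaccharide, read 7.17 and 7.11 in the arrays labelled Ets1/2 null and 8.37 to 9.10 in the other 9 arrays. It fell by 1.59 ± 0.24 against Ets1 null, 1.80 ± 0.24 against Ets2 null and 1.63 ± 0.24 against wild type (centred -0.75, -1.03 and -0.83). Among 14 adaptors and ligases, Traf6 rose in all 3 comparisons (0.51 ± 0.18, 0.58 ± 0.18 and 0.51 ± 0.18 against Ets1 null, Ets2 null and wild type), with larger centred differences of 1.35, 1.35 and 1.30. Traf2 fell against Ets1 null (-1.53 ± 0.18, centred -0.69) and Traf5 against wild type (-1.46 ± 0.22, centred -0.67).

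**Figure D5:**
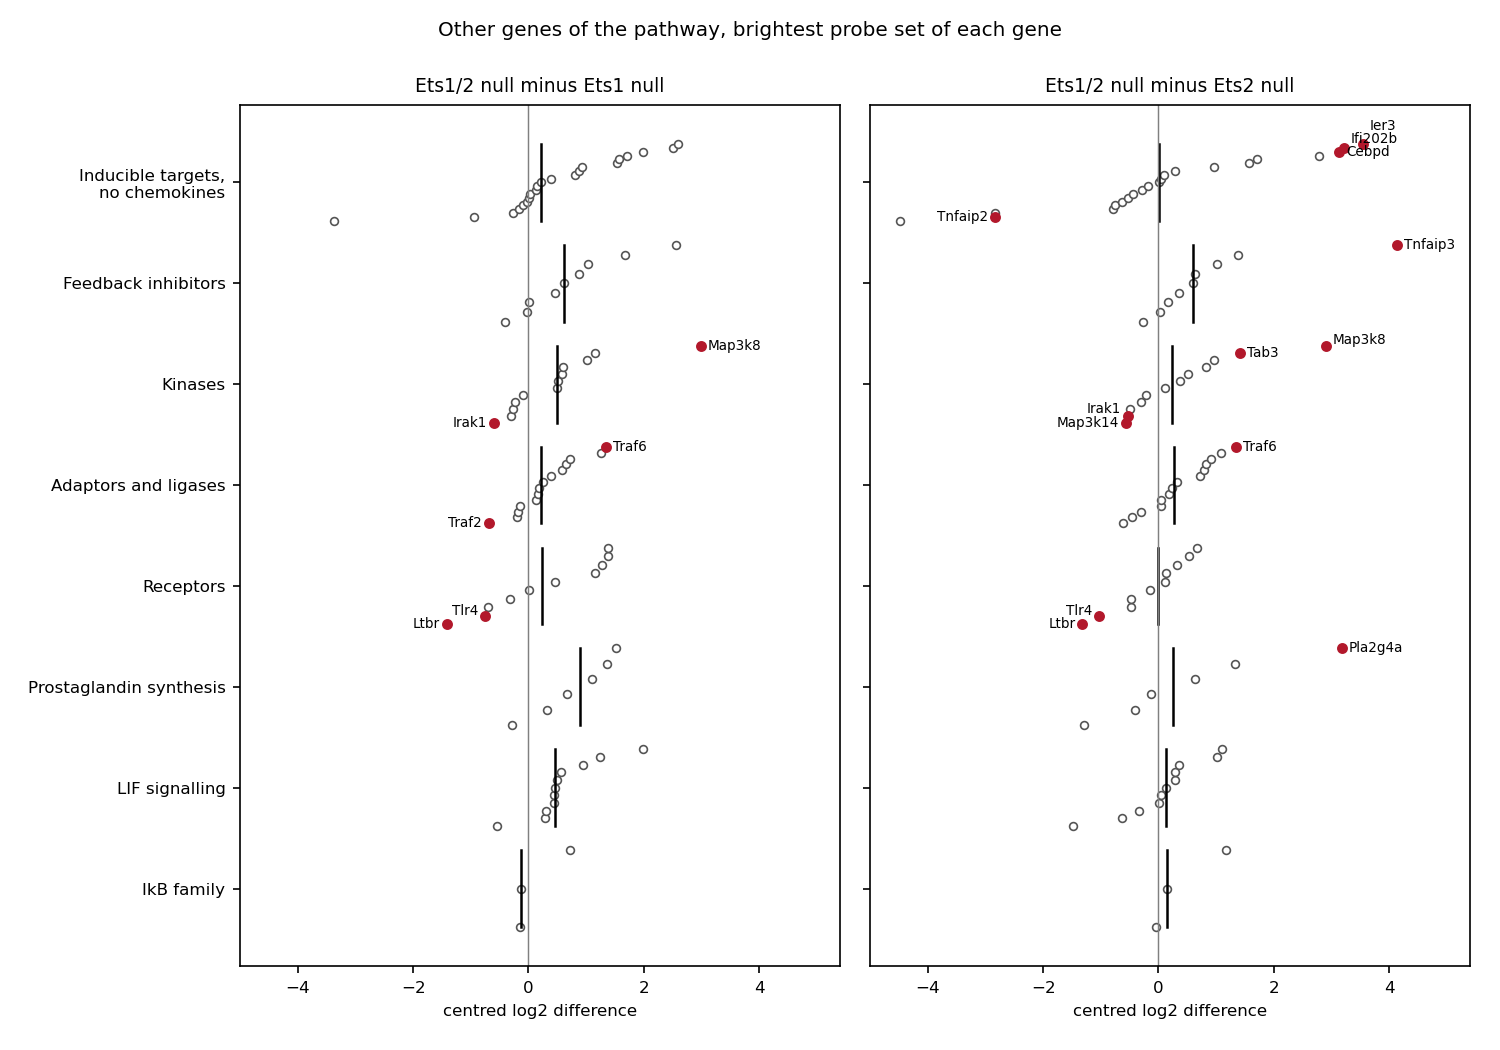
Centred log2 difference (horizontal axis) of the other pathway genes, by list (vertical axis), between the arrays labelled Ets1/2 null and Ets1 null or Ets2 null. Each point is the brightest probe set of a gene, black lines are list medians, and the named red genes passed in limma as deposited and centred; Tnfaip3 lies at 4.13 against Ets2 null.

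Tnfaip3, the gene of the feedback inhibitor A20, was the 1 of 9 feedback inhibitors that passed. It read 10.79 and 10.48 in the arrays labelled Ets1/2 null, 8.63, 8.95 and 9.18 in the Ets1 null arrays, 6.40, 7.004 and 8.44 in the Ets2 null arrays and 9.71, 10.67 and 8.02 in the wild-type arrays. Against Ets2 null it rose by 3.36 ± 0.74 (limma, adjusted p = 0.00504; centred 4.13). Among 21 inducible targets, 3 rose and 1 fell against Ets2 null, where 3.06% of all genes rose and 12.3% fell. None of these targets passed both ways against Ets1 null or wild type. Those that rose were Ier3, an immediate early survival gene (2.77 ± 0.76, adjusted p = 0.0141, centred 3.54), Cebpd, a transcription factor of the acute phase (2.36 ± 0.65, adjusted p = 0.0146, centred 3.14), and Ifi202b (2.44 ± 0.67, adjusted p = 0.0141, centred 3.21), whose probe set can read other copies of its family. Tnfaip2 fell by 3.61 ± 0.79 (adjusted p = 0.00474, centred -2.84).

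In the prostaglandin list, Pla2g4a, the phospholipase that frees the substrate of the Ptgs2 enzyme, rose against Ets2 null and wild type. It read 11.32 and 10.67 in the arrays labelled Ets1/2 null, 10.44, 10.09 and 10.44 in the Ets1 null arrays, 8.26, 8.78 and 8.71 in the Ets2 null arrays and 9.22, 10.16 and 9.26 in the wild-type arrays. The rise was 2.41 ± 0.32 against Ets2 null (limma, adjusted p = 0.000311; centred 3.18) and 1.44 ± 0.32 against wild type (adjusted p = 0.00523; centred 2.24). Ets2 null was lowest in this gene as in Ptgs2. Of the 11 genes of LIF signalling, such as Lifr and Stat3, none passed both ways in the 3 comparisons, nor did the 3 other IkappaB genes, Relb or the 1 measured partner of lipocalin.

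The same lists in the single nulls are given as values. In Ets1 null, 61 of 88 pathway genes lay below wild type, against 5266 of all 11015 genes, with a median of -0.22 (0.01 over all genes). Of 21 inducible targets 18 did, with a median of -0.69. Genes are named by list, at most 2 per list and direction. Those above wild type included Vcam1 (0.94 ± 1.23), Pla2g4a (0.77 ± 0.29) and Il33 (0.46 ± 1.15). Those below wild type included the serum amyloid gene Saa3 (-2.88 ± 1.41), Selp (-2.55 ± 1.39), Tlr2 (-1.96 ± 0.70), Il1rap (-1.62 ± 0.45), Zc3h12a, an RNase that limits inflammatory transcripts (-1.33 ± 0.31), and the subunit gene Relb (-0.95 ± 0.33). In Ets2 null, 59 of 88 lay below wild type, against 5771 of all 11015 genes, with a median of -0.18 (-0.02 over all genes). Saa3 (-3.22 ± 1.41), Ier3 (-3.14 ± 0.68), Tnfaip3 (-2.19 ± 0.67), Zc3h12a (-1.11 ± 0.31) and Nfkbie (-1.04 ± 0.29) were among those below, and Mmp3 (2.06 ± 1.42), F3 (1.84 ± 0.94) and Ctf1 (1.47 ± 0.37) among those above. Saa3 read 10.90 and 6.86 in the arrays labelled Ets1/2 null, 6.86 to 7.62 in the Ets1 null arrays, 6.64 to 7.13 in the Ets2 null arrays and 11.71, 12.01 and 6.57 in wild type.

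The difference of the arrays labelled Ets1/2 null from Ets1 null, minus that of Ets2 null from wild type, was 4.24 ± 0.51 for Nfkbiz, 6.97 ± 1.10 for Ptgs2, 6.28 ± 1.79 for Lif, 8.61 ± 2.30 for Lcn2, 1.95 ± 0.53 for Nfkbia and 1.25 ± 0.41 for Bcl3. For Rela it was -1.74 ± 0.21 and for Nfkb2 -1.995 ± 0.51. After centring these were 5.06, 7.79, 7.10, 9.43, 2.77 and 2.07, and -0.92 and -1.17. It contains a comparison that chose the genes, so no test is given. The median over the 8 genes was 3.10 as deposited and 3.92 centred.

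Of the marker lists, fibroblast and leukocyte markers had higher centred medians in the arrays labelled Ets1/2 null than in Ets1 null. Fibroblast markers ran from 1.26 to 2.09 in the arrays labelled Ets1/2 null and from -0.38 to 0.68 in Ets1 null, and leukocyte markers from -1.66 to -1.24 and from -2.08 to -1.90 in these groups. Against Ets2 null the fibroblast ranges overlapped (1.26 to 2.09 and 1.07 to 2.14), and the leukocyte ranges did not (-1.66 to -1.24 and -2.13 to -1.94). Against wild type the leukocyte ranges did not overlap either (-1.66 to -1.24 and -1.91 to -1.74). These ranges are of centred values, and the leukocyte list turned with the scaling. As deposited, 2 of its 5 genes were higher and 3 lower against Ets1 null, with a median difference of -0.65 (0.19 centred). Against wild type 0 were higher and 5 lower as deposited, with a median of -0.78 (0.01 centred). In these 2 comparisons 0 leukocyte markers passed both ways. Of the 8 fibroblast markers, 5 were higher and 3 lower against Ets1 null as deposited, with a median difference of 0.22 (1.06 centred). In that comparison 0 fibroblast markers were called as deposited and 0 centred. Of the 5 endothelial markers, 4 had lower means in the arrays labelled Ets1/2 null than in wild type and than in Ets2 null, as deposited and centred, with a centred median difference of -1.02 in both, and 1 was called lower both ways against Ets2 null. The part of these cells in the rises of Nfkbiz, Ptgs2, Lif and Lcn2 was not tested.

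Genes with the most similar pattern were sought among 11007 others by the correlation of centred values over the 11 arrays, which share the 4 groups and the array offsets. Nfkbiz was nearest to Celf4 (r = 0.983, and 0.982 over the 9 arrays without those labelled Ets1/2 null), Nfkbia to Map3k8 (0.971 and 0.950), Ptgs2 to Pkn2 (0.971 and 0.948) and Lif to Stx6 (0.945 and 0.921). Bcl3 was nearest to Gng12 (0.950 and 0.956), followed at rank 3 by Zc3h12a (0.912 and 0.948). Lcn2 was nearest to the chemokine genes Ccl2 (0.907 and 0.916) and Ccl5 (0.888 and 0.838). Rela and Nfkb2 were nearest to Gna12 (0.977 and 0.791) and Parp1 (0.955 and 0.866), and their correlations dropped most without the arrays labelled Ets1/2 null. Each r is a description of these arrays.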

How the data were processed

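The deposited table holds 1 log2 value per probe set and array, and the authors used RMA, per the submitters' processing notes; its version, any filter and joint or separate normalization of the groups are not given in the labels used here. Another column labelled Ets1/2 null was within 1e-06 of the mean of its group's other columns for 20521 of 20523 probe sets. It was left out, so that group had n = 2 and the others n = 3. The array annotation gave 1 symbol to 18824 probe sets, several to 549 and none to 1150. Where the free text of a single null contradicted its title and genotype, the last were followed. limma 3.58.1 in R 4.3.3 (lmFit and eBayes, two-sided) fitted 1 mean per group to all probe sets, with 7 residual degrees of freedom. P-values were adjusted by Benjamini-Hochberg over all 20523 probe sets, and an adjusted p under 0.05 was called. A gene was read from its probe set with the highest mean. Members and gene lists were chosen with earlier results of these data known. Up to 3 pathway genes per list and direction are named where they passed both ways, up to 2 in the single-null comparisons. pandas 2.3.3 and matplotlib 3.10.9 made tables and plots, and the fit was tested on simulated data. With no counts behind them, the precision of the values rests on the number of arrays. Alternatives were each array left out, the replicate number as a block, quantile normalization, array weights, probe-set averaging, a dimness filter, a variance trend, a term for male arrays and fits on only the compared groups.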

Additional observations from a re-analysis of the deposited data

Results flagged for a closer look

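In 6 of the 8 genes, every array labelled Ets1/2 null lay above the mean of Ets1 null while every Ets2 null array lay below the mean of wild type. The difference of the arrays labelled Ets1/2 null from Ets1 null, minus that of Ets2 null from wild type, was 8.61 for Lcn2, 6.97 for Ptgs2, 6.28 for Lif, 4.24 for Nfkbiz, 1.95 for Nfkbia and 1.25 for Bcl3 on the log2 scale. It was not tested, because it contains the comparison of Ets2 null with wild type that chose the genes. The lower median of the arrays labelled Ets1/2 null moves all of these values: centred, they were 9.43, 7.79, 7.10, 5.06, 2.77 and 2.07. The brightest Ets1 probe set read 10.02 and 10.29 in those arrays, against 8.31 to 9.17 in Ets1 null, and the brighter Ets2 one read 11.02 and 9.63, against 10.28 to 10.54, and where these probes lie relative to the deleted parts was not known.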

How the results depend on the processing

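No called result reversed its direction under any of the 21 alternatives, which included leaving out each of the 11 arrays. The count of members called in the arrays labelled Ets1/2 null was 6 against Ets1 null as deposited and 2 to 7 with an array left out, the 2 without array 2 labelled Ets1/2 null. Against Ets2 null it was 6 and 4 to 7, and against wild type 3 and 2 to 4. Probe sets called against wild type were 10021, and 6614 with quantile normalization, 5588 with the mean of a gene's probe sets, 5054 with the brightest probe set per gene, and 8028 to 10719 with an array left out. Against Ets1 null they were 9812, and 6262, 5599, 4900, and 8132 to 10468 under the same settings. Against Ets2 null they were 10019, and 6566, 5716, 5103, and 8295 to 10561, with 4541 under a term for male arrays. Means of probe sets and the brightest probe set test fewer features. The term for male arrays rests on wild-type array 1 against wild-type arrays 2 and 3, since all Ets2 null arrays are male. The members' median against wild type was -1.16 in Ets1 null, -1.73 with array weights and -1.76 to -0.88 with an array left out, and -1.82 in Ets2 null, with -2.30 to -1.19. The interaction median was 3.10, 3.92 centred, 2.41 with the mean of probe sets, and 2.91 to 3.47 with an array left out. Replicate numbers did not pair the arrays: over 15 pairs of same-numbered arrays the correlations of deviations ran from -0.306 to 0.0998. With the replicate number as a block, 3, 4 and 4 members were called against wild type, Ets1 null and Ets2 null, with 9228, 8947 and 9096 probe sets, and medians of -1.16, -1.82 and 2.95. The offset in array medians and n = 2 limit every comparison with the arrays labelled Ets1/2 null.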
